A study of Homo sapiens with 36 samples.

Results

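The integrated stress response and amino acid supply genes described here are 35 genes of a pathway that links stress signals to the making and uptake of amino acids. They were found by gene symbol among the 60628 gene identifiers of the count table, which held all 35, and 33 of them had enough counts to be tested in a model of 21138 genes. NUPR1 and ALDH1L2 were the 2 that were not tested, with at most 0.185 and 0.288 CPM in any library (CPM, read counts scaled to a common library total). The levels and the response to a GATA3 hairpin were followed in 7 established human T cell neoplasm lines.

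The study sequenced polyadenylated RNA from lines with a short hairpin RNA against GATA3, a zinc finger transcription factor of the T lineage, and from the same lines with a scrambled hairpin. The design compares the 2 arms within each line, and the labels sort the lines into 2 classes. H9 (2 control and 3 knockdown libraries), MyLa (MylaCD4+ in the labels, 3 and 3) and Mac1 (2 and 2) are labelled cutaneous T lymphocytes and are called the cutaneous T cell lymphoma (CTCL) class here. The 4 lines labelled acute lymphoblastic leukaemia form the T-ALL class: CCRF-CEM and SUP-T1 with 3 libraries per arm, MOLT4 with 2 per arm, and THP6 with 3 control and 2 knockdown libraries. All control libraries carry a scrambled hairpin, although the genotype field calls them WT, and all cells were grown in RPMI medium with serum. Whether replicates came from separate cultures is not in the labels, and the scatter that the p-values rest on may be only technical. Which hairpin sequence each knockdown library carried is not in them either.

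In the integrated stress response, kinases that sense amino acid shortage, unfolded protein, heme loss or double-stranded RNA phosphorylate the initiation factor eIF2. General translation then slows while the ATF4 message is translated better, so that the amount of ATF4 RNA is only part of what sets the ATF4 protein. ATF4 pairs with C/EBP family proteins on a composite site, the C/EBP-ATF response element, and turns on amino acid transporters, enzymes of asparagine, serine, proline and cysteine metabolism, and feedback genes. Proliferating lymphoid cells depend on such supply, and lymphoblasts with little asparagine synthetase are known to be sensitive to asparaginase.

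The core of the composite site was searched for as TGATGNAA on both strands in RefSeq promoter windows (GRCh38.p14), which reach from 250 bases before a gene's start to 50 bases after it. A window was given for 29 of the 35 genes, and 10 of these 29 (34.5%) held at least 1 match, against 1217 of 27305 genes (4.46%) with a window. The 10 were ASNS, ATF3, CEBPG, CHAC1, JDP2, SLC1A4, SLC1A5, SLC38A1, SLC3A2 and SLC7A1. A match is a description of the letters in the window and not a measured binding site. The matches before the start of CHAC1, ATF3 and SLC1A5, the 3 members that were called in 3 lines and hold one there, are printed as 30 bases each, 5′ to 3′ on the strand of the gene. ASNS and CEBPG were added after their values were seen, ASNS as a textbook target and CEBPG as a member with a match that was called in no line. Capitals mark the match, which for CHAC1 reads on the opposite strand.
CHAC1: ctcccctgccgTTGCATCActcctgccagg
ATF3: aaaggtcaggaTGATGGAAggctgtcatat
SLC1A5: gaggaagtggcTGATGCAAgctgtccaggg
ASNS: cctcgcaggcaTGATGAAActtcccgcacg
CEBPG: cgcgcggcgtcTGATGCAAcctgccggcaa

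The CHAC1 stretch lies at chr15:40953251-40953280 on the plus strand, with the match 209 bases before the RefSeq start, and 2 of 5 GENCODE 29 transcripts have it in an untranslated exon. The ATF3 stretch, at chr1:212565205-212565234 on the plus strand, begins its match 191 bases before the start and lies outside every ATF3 transcript of that annotation. For SLC1A5 the stretch at chr19:46784893-46784922 on the minus strand has its match 97 bases before an alternative start, inside 3 of 6 transcripts and in an untranslated exon of 1 of them. The ASNS stretch (chr7:97872458-97872487, minus strand) has its match 68 bases before the start and is in an untranslated exon of 4 of 17 transcripts. The CEBPG stretch (chr19:33374060-33374089, plus strand) has its match 42 bases before the start and lies in an intron of 1 of 2 transcripts. The SLC7A1 match lies past the start.

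Library totals ran from 18.62 M to 50.63 M counts (median 26.9 M), and mitochondrial genes took 0.568% to 4.26% of them. In 6 lines the GATA3 levels of all knockdown libraries lay below those of all controls. In SUP-T1 it went the other way, at 24.4, 23.6 and 24.2 CPM in the libraries labelled control and 81.3, 77.2 and 86.6 CPM in those labelled knockdown, so a direction in that line is given by the label and goes with more GATA3 RNA, not less. The knockdown libraries of THP6 correlated with each other at 0.9805, the lowest value within any group. Of 11 T cell markers, 5 in Mac1 and 6 in MyLa had a mean above 1 CPM. CD3D, CD3E, CD3G and LCK were at 0 in all Mac1 libraries, which had CD4 at 230.9, CD2 at 163.4 and CD247 at 95.4 CPM. MyLa had CD3E at 0.345 and LCK at 0.0478 CPM, but CD3D at 128.8, CD2 at 116.2, CD3G at 71.1 and CD247 at 64.5 CPM. MyLa also had 209.9 CPM of the collagen COL3A1. The other 5 lines expressed all of CD3D, CD3E, CD3G and LCK.

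**Figure D1:**
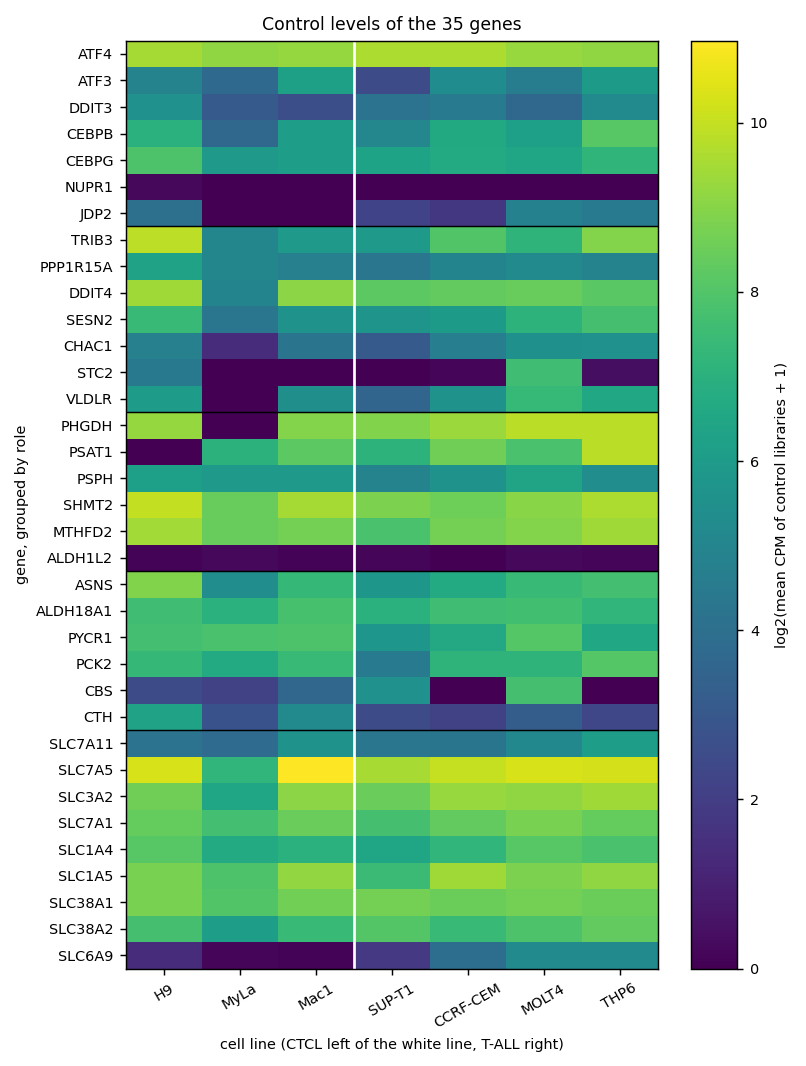
Colour gives log2 of the mean CPM of the control libraries plus 1 for each of the 35 genes (rows, grouped by role) in each of the 7 lines (columns). ATF4 is bright in every column, PHGDH is dark only in MyLa and PSAT1 only in H9.

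Control levels of the regulators came first. ATF4 (ENSG00000128272, chromosome 22, 39519695 to 39522685, plus strand) had the highest mean level per kilobase of exon of the 35 genes, 263 CPM per kilobase over the 7 lines. Its control level differed little between lines, from 564 ± 39 CPM in THP6 (SD, n = 3) to 788 ± 19.6 CPM in SUP-T1 (n = 3), a ratio of 1.40. SUP-T1, CCRF-CEM and H9 stood above the others, and neighbours in that trio overlapped. ATF3, another transcription factor of the response, ranged more widely, from 4.82 ± 0.927 CPM in SUP-T1 (n = 3) to 75 ± 1.34 CPM in Mac1 (n = 2). DDIT3, which encodes the pro-death factor CHOP, ran from 5.17 ± 0.172 CPM in Mac1 (n = 2) to 46.3 ± 2.33 CPM in H9 (n = 2). The ATF4 partner CEBPB ran from 12.2 ± 0.987 CPM in MyLa (n = 3) to 281 ± 22.8 CPM in THP6 (n = 3). JDP2, a repressor of the same leucine zipper family, was at 0 counts in all MyLa and Mac1 libraries and at 27.5 CPM in MOLT4 controls.

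Among effectors, TRIB3, a pseudokinase that restrains ATF4 and AKT, was highest in H9 at 951 ± 24.3 CPM (n = 2) and lowest in MyLa at 32.2 ± 1.16 CPM (n = 3). CHAC1, an enzyme that degrades glutathione, was lowest in MyLa too, at 1.61 ± 0.183 CPM (n = 3), and highest in THP6 at 45.2 ± 0.733 CPM (n = 3), where it overlapped the next line. Secreted stanniocalcin STC2 was nearly restricted to MOLT4 (196 ± 2.99 CPM, n = 2) and H9. The lipoprotein receptor VLDLR gave 1 count over 6 MyLa libraries and 162 ± 6.04 CPM in MOLT4 controls (n = 2).

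The serine pathway held the widest gaps, and they were gaps of single genes. PHGDH, the first enzyme of serine synthesis, was at 0 counts in all 6 MyLa libraries. Set against 3 counts over the MyLa controls (0.0373 CPM), the line next above, SUP-T1 at 480 CPM, was at least 12900-fold higher. PSAT1, the second enzyme, was at 0 counts in all 5 H9 libraries and at 132 CPM or more in every other line, at least 2390-fold above 3 counts over the H9 controls. Each of these lines expressed the other enzyme. In MyLa controls PSAT1 stood at 136, 137 and 122 CPM, and in H9 controls PHGDH stood at 582 and 625 CPM. PSPH, SHMT2 and MTHFD2, which complete serine synthesis and feed mitochondrial folate metabolism, were expressed in all 7 lines. The mitochondrial folate enzyme ALDH1L2 stayed below 0.3 CPM everywhere.

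The transsulfuration enzymes were uneven as well. CBS has a near-identical copy, CBSL, that shares its reads, so the 2 were summed for the levels given here. All tests used the CBS row alone. The sum was at 0 in all 6 CCRF-CEM libraries, at 0.0108 CPM in THP6 controls, between 26.2 and 51.5 CPM in H9, MyLa, Mac1 and SUP-T1 controls and at 370 ± 14.4 CPM in MOLT4 controls (n = 2). CTH, the next enzyme toward cysteine, was highest in H9 (78.9 ± 2.51 CPM, n = 2) and lowest in CCRF-CEM (3.42 ± 0.646 CPM, n = 3). Asparagine synthetase ASNS was highest in H9 (477 ± 35.6 CPM, n = 2) and lowest in MyLa (40 ± 0.501 CPM, n = 3).

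Of the transporters, SLC7A5, the large neutral amino acid exchanger, had the highest mean level per kilobase over the 7 lines (231 CPM per kilobase), although in MyLa SLC1A5 was above it (72.6 against 31.2 CPM per kilobase). Its level ran from 148 ± 5.48 CPM in MyLa (n = 3) to 2003 ± 123 CPM in Mac1 (n = 2). The cystine importer SLC7A11 was highest in THP6 at 69.7 ± 1.11 CPM (n = 3). The glutamine carrier SLC1A5 was highest in CCRF-CEM at 670 ± 42.2 CPM (n = 3) and lowest in SUP-T1 at 180 ± 19.8 CPM (n = 3). Over the 35 genes MyLa held the lowest control mean for 17 and SUP-T1 for 10, while H9 held the highest for 11, MOLT4 for 10 and THP6 for 9. Ties at 0 were not counted for MyLa. STC2 and NUPR1 were at 0 in the controls of both MyLa and SUP-T1 and were counted for SUP-T1. JDP2 was at 0 in the controls of both MyLa and Mac1 and was counted for Mac1.

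When controls were summed per line and the 3 CTCL lines set against the 4 T-ALL lines, 0 of 33 genes were called by edgeR's quasi-likelihood test (background 0.28% of 18565 genes), and 2 had an unadjusted p under 0.05. CTH averaged 40.1 CPM in CTCL and 5.19 CPM in T-ALL lines (log2 difference 2.96, SE 0.80, edgeR adjusted p = 0.194). H9 (78.9 CPM) and Mac1 (35.5 CPM) carried the CTCL mean, and MyLa, at 5.87 CPM, lay below MOLT4 at 8.39 CPM. The glycine transporter SLC6A9 averaged 0.615 and 22.6 CPM (log2 difference -5.18, SE 1.58, edgeR adjusted p = 0.232). CCRF-CEM, MOLT4 and THP6 carried the T-ALL mean. SUP-T1 controls, at 3.37, 2.42 and 1.73 CPM, overlapped H9 controls, at 1.96 and 1.35 CPM. MyLa and Mac1 had at most 4 SLC6A9 counts in any library, so the size of the difference rests on values near 0. The next were SLC38A2 (log2 difference -0.71) and PYCR1 (0.85), with edgeR adjusted p of 0.483 and 0.523. DESeq2 called CTH and SLC6A9, with adjusted p of 0.00971 and 0.00128, but it also called 8.3% of all genes, a share above the 2 of 33.

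**Figure D2:**
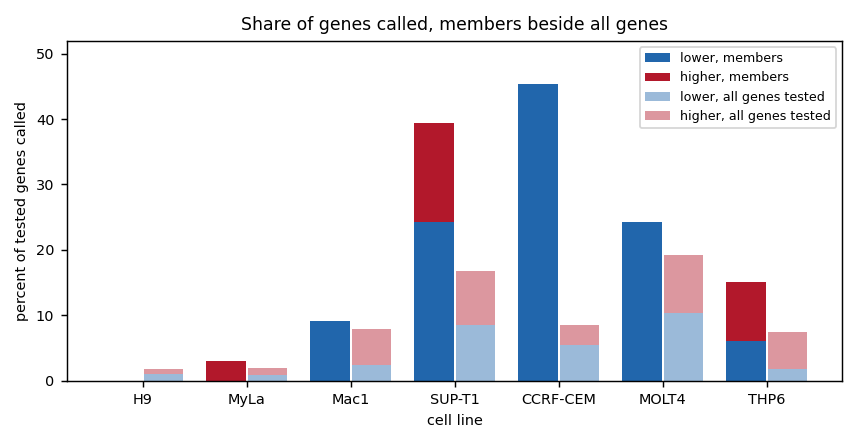
Bars give the percent of tested genes called lower (blue) and higher (red) in each line, for the 33 tested members (full colour) and for all 21138 genes tested (pale). CCRF-CEM stands at 45.5% against 8.44%, all of it lower, and SUP-T1 at 39.4% against 16.7%.

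Within lines, 26 of the 33 tested genes were called in at least 1 line at an edgeR adjusted p under 0.05, 18 of them only lower, 3 only higher and 5 both ways. CEBPG, JDP2, PSAT1, PSPH, MTHFD2, CBS (without the reads of CBSL) and SLC6A9 were called in none. No share of all genes called in at least 1 line is given here, so the 26 and its split have no background. The share of members called differed from line to line. So did the share of all genes, from 1.82% in H9 to 19.2% in MOLT4, which is given beside each count by line.

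**Figure D3:**
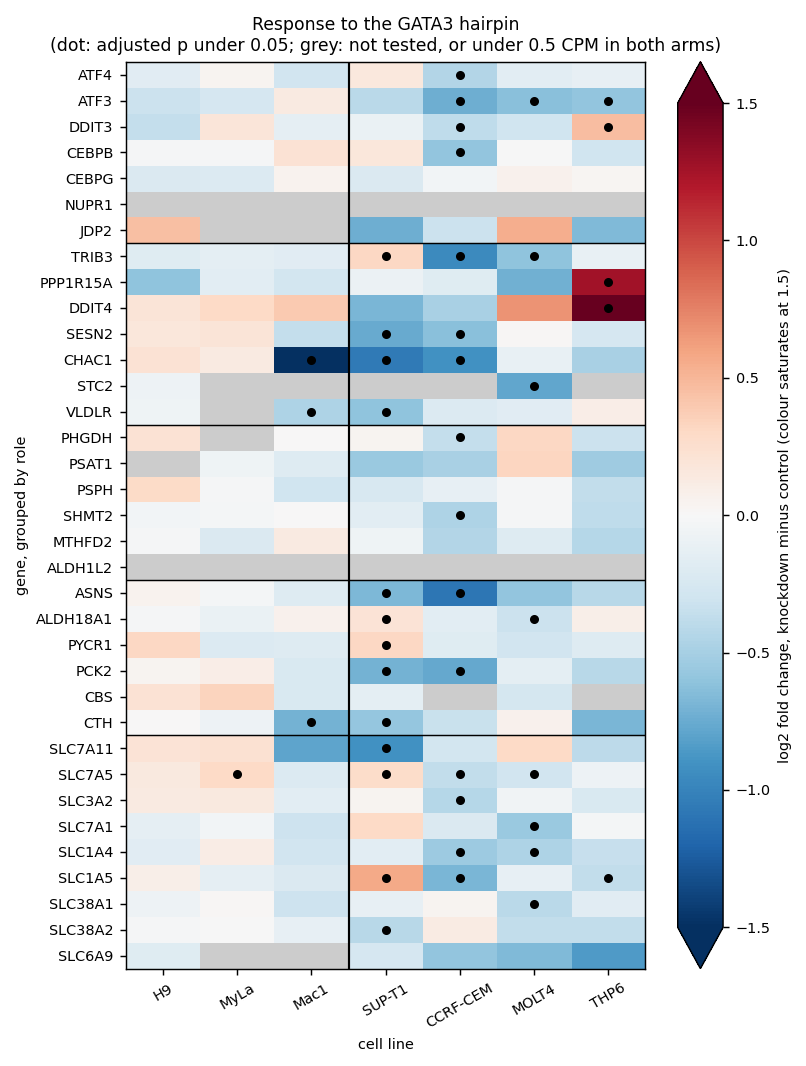
Colour gives the log2 fold change, knockdown minus control, for each gene (rows, grouped by role) in each line (columns); dots mark an edgeR adjusted p under 0.05 and grey marks genes not tested or under 0.5 CPM in both arms. The 15 dots of CCRF-CEM are all lower, whereas SUP-T1 has 5 higher and 8 lower.

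CCRF-CEM, a T-ALL line, had the largest share of members called among the 7 lines. Of 33 genes 15 fell and 0 rose (background 8.44% of 21138 genes in either direction, 5.43% lower and 3% higher). The median log2 fold change of the 33 was -0.38 against 0 for all genes, 30 were below 0 (47.1% of all genes), and for 23 every knockdown library was below every control library (15.9% of all genes). The falling genes came from every role: 4 of 6 tested transcription factors (ATF4, ATF3, DDIT3 and CEBPB), 3 of 7 effectors (TRIB3, SESN2 and CHAC1), 2 of 5 serine and one-carbon enzymes (PHGDH and SHMT2), 2 of 6 other enzymes (ASNS and PCK2) and 4 of 9 transporters (SLC7A5, SLC3A2, SLC1A4 and SLC1A5).

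ATF4 was at 825, 773 and 732 CPM in CCRF-CEM controls and at 588, 565 and 566 CPM in knockdown libraries. The arms did not overlap, and the log2 fold change was -0.44 (SE 0.08, edgeR adjusted p = 0.000515). TRIB3 (chromosome 20, 362835 to 397559, plus strand) stood at 249, 272 and 234 CPM in controls and 134, 123 and 134 CPM in knockdown libraries. It had the lowest adjusted p of the 33 genes, with a log2 fold change of -0.95 (SE 0.10, edgeR adjusted p = 6.28e-08).

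SLC1A5 (chromosome 19, 46774883 to 46788594, minus strand) was at 661, 716 and 633 CPM in controls and 421, 411 and 419 CPM in knockdown libraries (log2 fold change -0.68, SE 0.09, edgeR adjusted p = 3.33e-06). CEBPB was at 103, 105 and 94 CPM and fell to 66.4, 66.5 and 67.4 CPM (log2 fold change -0.59, edgeR adjusted p = 5.10e-05). In both genes the 3 knockdown libraries lay close together, well below the lowest control. The largest change of the 33 was in ASNS (chromosome 7, 97852118 to 97872542, minus strand), which stood at 121, 85.1 and 102 CPM in controls and 52.5, 48.1 and 44.4 CPM in knockdown libraries. Its arms were separate although the controls spread, with a log2 fold change of -1.09 (SE 0.21, edgeR adjusted p = 0.000892).

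CHAC1 was at 25.7, 25.7 and 22.6 CPM in controls and 14.9, 11.2 and 13.3 CPM in knockdown libraries, and ATF3 at 42.1, 36.2 and 41.2 against 26.4, 21.4 and 24.2 CPM. Neither gene overlapped between arms, and their log2 fold changes were -0.91 and -0.74 (edgeR adjusted p 0.0231 and 0.00249). The remaining calls had log2 fold changes between -0.77 for PCK2, a mitochondrial gluconeogenic enzyme, and -0.35 for PHGDH. Every called gene had all knockdown libraries below all controls. Leaving out each library in turn left 12 to 13 members called (5.13% to 7.32% of all genes). The summed B cell markers lay between 27.4 and 29 CPM in controls and between 17.4 and 19 CPM in knockdown libraries (1 of 6 at 0 throughout), and their part was not tested. In bulk RNA fewer expressing cells and less RNA per cell cannot be told apart, here or in the other lines.

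**Figure D4:**
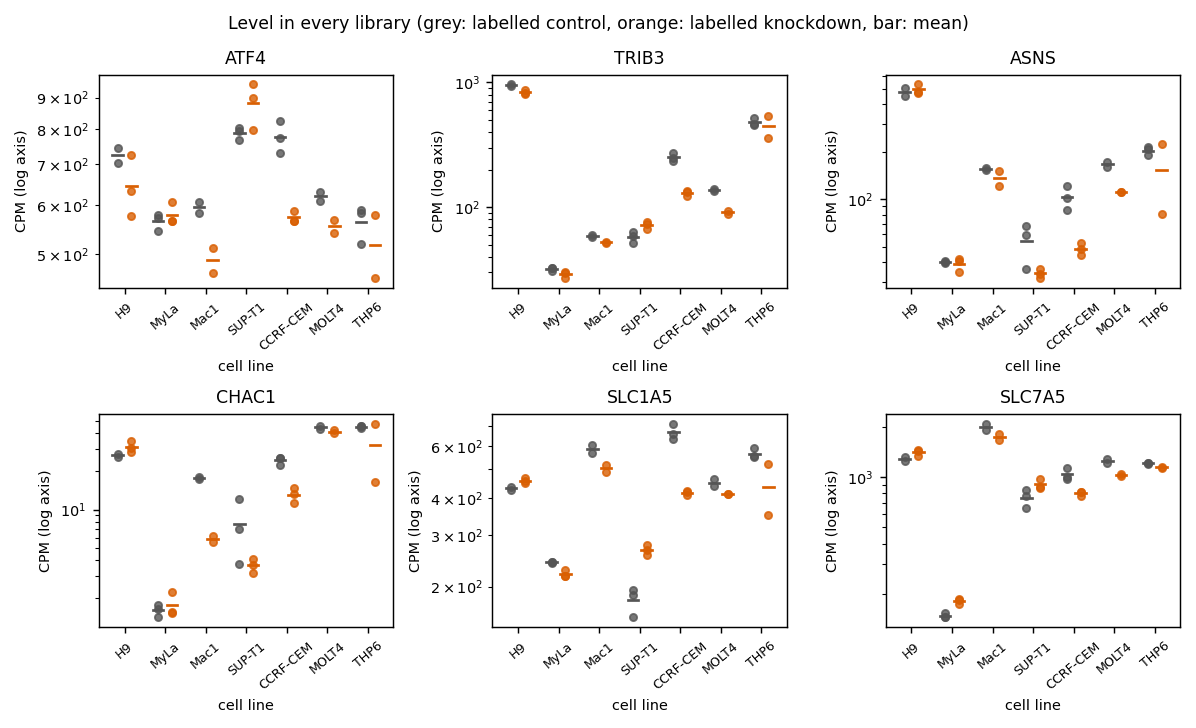
Points give CPM on a log axis in every library for 6 genes, grey for libraries labelled control and orange for those labelled knockdown, with a bar at each mean. In CCRF-CEM all 6 genes have separate arms; in SUP-T1 SLC1A5 and SLC7A5 are higher and ASNS and CHAC1 lower in the libraries labelled knockdown.

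MOLT4, the T-ALL line with the strongest fall of GATA3, had 8 members lower and 0 higher, 24.2% of the 33 tested, beside a background of 19.2% of all genes (10.3% lower, 8.88% higher). The share called in either direction is near the background. All 8 calls were lower, however, and 10.3% of all genes were called lower. A log2 fold change below 0 was seen in 75.8% of the members and 49.8% of all genes. The fallen genes were TRIB3, ALDH18A1, SLC7A1, STC2, SLC38A1, SLC1A4, SLC7A5 and ATF3, of which 4 are transporters, out of 9, and none is a serine or one-carbon enzyme. TRIB3 was at 135 and 141 CPM in controls and 93.7 and 88.3 CPM in knockdown libraries, separate arms with a log2 fold change of -0.60 (SE 0.12, edgeR adjusted p = 0.000422).

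ALDH18A1, the first enzyme of proline synthesis, went from 194 and 205 to 153 and 165 CPM (log2 fold change -0.33, edgeR adjusted p = 0.000612). The arginine and lysine transporter SLC7A1 went from 411 and 463 to 278 and 315 CPM (log2 fold change -0.56, edgeR adjusted p = 0.00339). STC2 went from 198 and 194 to 114 and 115 CPM (log2 fold change -0.77, edgeR adjusted p = 0.00369). All 3 had separate arms. With 2 libraries an arm, all knockdown libraries lay below all controls for 21 of the 33 members and for 6899 of 21138 genes. They lay above for 6 members and 6000 genes. ATF3 stood at 23.4 and 23.3 CPM in controls and 14.5 and 15.7 CPM in knockdown libraries (log2 fold change -0.63, edgeR adjusted p = 0.0261). ATF4 itself was at 610 and 631 against 568 and 541 CPM and was not called (log2 fold change -0.16, edgeR adjusted p = 0.294). The median log2 fold change of the members was -0.17 against 0 for all genes. The summed T cell markers stood at 1889 and 1933 CPM in MOLT4 controls and 3036 and 2926 CPM in knockdown libraries, and the stromal and endothelial markers at 91.9 and 95.2 against 70.9 and 72.1 CPM (2 of 5 at 0 throughout), the part of either not tested.

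SUP-T1, where GATA3 RNA was higher in the libraries labelled knockdown, had 13 members called, of which 5 rose and 8 fell with the label (background 16.7% of all genes, 8.14% higher and 8.57% lower). Higher in the libraries labelled knockdown were SLC1A5, SLC7A5, ALDH18A1, TRIB3 and PYCR1. SESN2, VLDLR, PCK2, CHAC1, ASNS, SLC7A11, SLC38A2 and CTH were lower there. SLC1A5 was at 195, 187 and 157 CPM in libraries labelled control and 266, 255 and 278 CPM in those labelled knockdown, with no overlap (log2 fold change 0.57, SE 0.09, edgeR adjusted p = 2.29e-05).

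SESN2, a sestrin that restrains mTORC1 signalling, was at 59.5, 50.0 and 40.6 against 30.3, 29 and 29.5 CPM (log2 fold change -0.76, edgeR adjusted p = 4.91e-05). VLDLR was at 11.9, 11.7 and 9.54 against 6.24, 7.61 and 7.97 CPM (log2 fold change -0.60, edgeR adjusted p = 6.29e-05). PCK2 was at 27.8, 24.3 and 16.4 against 14, 13.3 and 14.4 CPM (log2 fold change -0.71, edgeR adjusted p = 0.00665). These 3 genes had separate arms, and in each the third control library was the lowest control. All libraries labelled knockdown lay below all labelled control for 12 of the 33 members and 3960 of 21138 genes, and above for 6 members and 3331 genes. The third control library also brought CHAC1 and ASNS into overlap. CHAC1 read 12.2, 7.04 and 3.73 CPM in the libraries labelled control and 4.05, 3.67 and 3.16 CPM in those labelled knockdown. ASNS read 67.6, 59.5 and 36.2 against 33.9, 36.5 and 31.7 CPM. Their log2 fold changes were -1.06 and -0.68 (edgeR adjusted p 0.0131 and 0.0285). ATF4 was at 803, 794 and 766 against 899, 946 and 797 CPM, overlapping and not called (log2 fold change 0.16, edgeR adjusted p = 0.205). The summed T cell markers were at 3317 to 3519 CPM in the libraries labelled control and 2630 to 2857 CPM in those labelled knockdown, and their part was not tested. Leaving out 1 library at a time left 6 to 9 of the members called (12.2% to 14% of all genes), with 6 when the first library labelled control was out.

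CCRF-CEM and SUP-T1 shared 7 called members, which is 7 of 15 and 7 of 13. Over all genes they shared 736, which is 41.3% of the CCRF-CEM and 20.8% of the SUP-T1 calls, 120 in the same and 616 in the opposite direction by label. ASNS, CHAC1, PCK2 and SESN2 were lower in the knockdown-labelled libraries of both, while SLC1A5, SLC7A5 and TRIB3 were lower in CCRF-CEM and higher in SUP-T1. Of these SUP-T1 calls only SESN2 and SLC1A5 held under all 13 alternatives run, while ASNS was lost under 7, TRIB3 under 5, CHAC1 under 4, and PCK2 and SLC7A5 under 2 each. CCRF-CEM and MOLT4 shared ATF3, SLC1A4, SLC7A5 and TRIB3, all lower, 4 of 15 and 4 of 8 calls. Over all genes they shared 742 (41.6% of the CCRF-CEM and 18.3% of the MOLT4 calls), 551 in the same direction and 191 in opposite ones. Of the 4 shared members, all held under the 13 alternatives run for CCRF-CEM. In MOLT4 only TRIB3 held under all 11 alternatives run, while ATF3 and SLC1A4 held under 7 each and SLC7A5 under 5. SUP-T1 and MOLT4 shared ALDH18A1, SLC7A5 and TRIB3, all in opposite directions, 3 of 13 and 3 of 8 calls. All genes shared by these 2 lines numbered 1248 (35.3% and 30.8%), 287 in the same direction by label and 961 in opposite ones. Each line had its own controls, so these comparisons share no library.

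THP6 had 5 members called, with DDIT4, PPP1R15A and DDIT3 higher and SLC1A5 and ATF3 lower (background 7.4% of all genes, 5.56% higher and 1.84% lower). These calls rest on 1 of its 2 knockdown libraries. DDIT4, an mTORC1 inhibitor induced by many stresses (chromosome 10, 72273920 to 72276036, plus strand), was at 281, 283 and 286 CPM in controls, 320 CPM in knockdown 1 and 1617 CPM in knockdown 2. PPP1R15A, the phosphatase subunit that ends the response, was at 29.5, 27.2 and 29.4 CPM in controls and at 28.3 and 109 CPM in the knockdown libraries. DDIT3 was at 38.1, 38.6 and 34.8 CPM and at 42.5 and 60.0 CPM. Only knockdown 2 stood far from the controls in these 3 genes, and PPP1R15A in knockdown 1 lay among them. Their log2 fold changes were 1.77, 1.26 and 0.46 (edgeR adjusted p 0.00101, 0.00239 and 0.0184). SLC1A5 was at 591, 556 and 551 against 524 and 351 CPM (log2 fold change -0.37, edgeR adjusted p = 0.0204). ATF3 was at 66.7, 60.6 and 60.0 against 57.8 and 25.4 CPM (log2 fold change -0.59, edgeR adjusted p = 0.0385), and ATF4 at 519, 583 and 590 against 579 and 456 CPM (log2 fold change -0.12, edgeR adjusted p = 0.460).

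**Figure D5:**
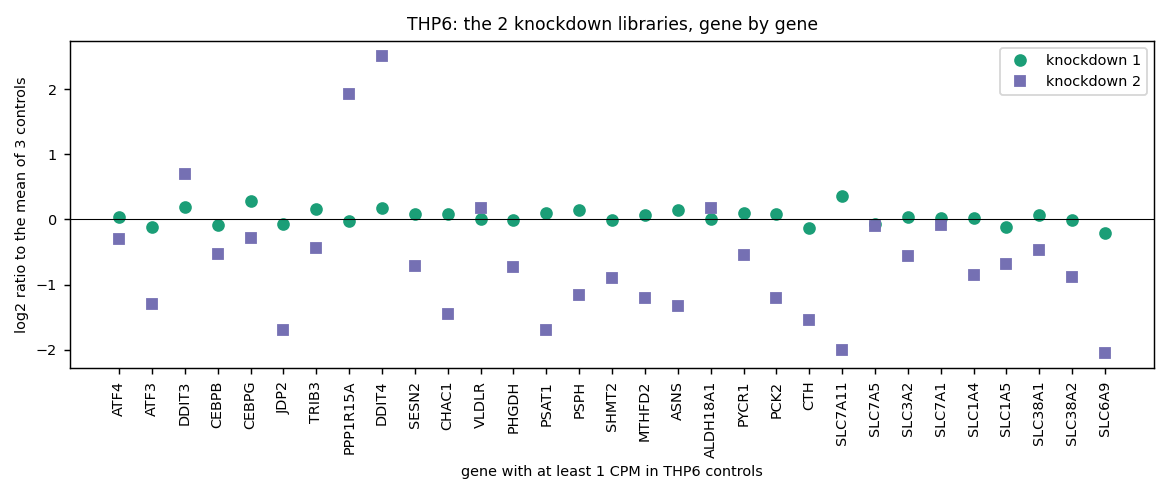
Points give, for the 31 members with at least 1 CPM in THP6 controls, the log2 ratio of each knockdown library to the mean of the 3 controls (circles, knockdown 1; squares, knockdown 2). Knockdown 1 stays near 0 throughout, and knockdown 2 is at least 1.5-fold lower for 17 genes and at least 1.5-fold higher for 3.

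Taken alone, with no replicate, knockdown 2 was at least 1.5-fold below the control mean for 17 of the 31 members with 1 CPM or more in controls, which is 54.8% against 17.5% of 12947 genes. It was at least 1.5-fold above for 3, DDIT4 (5.71 times the controls), PPP1R15A (3.81 times) and DDIT3 (1.61 times), which is 9.68% of the members against 14.6% of all genes. All 5 serine and one-carbon enzymes measured were lower, from 0.309 times the controls for PSAT1 to 0.600 times for PHGDH. ASNS stood at 0.398, SLC7A11 at 0.250 and CHAC1 at 0.366 times the controls. In knockdown 1 none of the 31 differed by 1.5-fold, and the median ratio was 1.02. Both libraries had less GATA3 than any control, at 55.7 CPM in knockdown 1 and 73.5 CPM in knockdown 2. Totals (27 and 27.28 M) and mitochondrial shares (1.16% and 1.22%) were alike. What else set the 2 libraries apart was not tested. Without knockdown 2, 0 members were called (0.338% of all genes), and without knockdown 1, 29 (36% of all genes). In each of these fits the lone knockdown library was assumed to vary like the libraries of the other groups.

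Mac1 had 3 members lower and 0 higher, 9.09% of the 33, beside a background of 7.89% (2.35% lower, 5.54% higher). CHAC1 (chromosome 15, 40952962 to 40956519, plus strand) fell the most, from 17.6 and 17.9 CPM to 6.18 and 5.58 CPM, with a log2 fold change of -1.59 (SE 0.33, edgeR adjusted p = 0.00233). VLDLR went from 43.0 and 42.6 to 31.2 and 31.1 CPM (log2 fold change -0.46, edgeR adjusted p = 0.00603), and CTH from 33.4 and 37.6 to 23.1 and 20.1 CPM (log2 fold change -0.71, edgeR adjusted p = 0.0172). The arms were separate for all 3, which were also the 3 that Mac1 shared with SUP-T1, lower in both. Over all genes these 2 lines shared 578 (34.7% of the Mac1 and 16.4% of the SUP-T1 calls), 132 in the same direction by label and 446 in opposite ones. ATF4 read 584 and 608 against 511 and 466 CPM, separate but not called (log2 fold change -0.29, edgeR adjusted p = 0.0769). For 22 of the 33 members both knockdown libraries lay below both controls (22.1% of all genes), and the median log2 fold change was -0.20 against 0. All 9 transporters were on the lower side (41.1% of all genes were), with log2 fold changes from -0.79 for SLC7A11 to -0.13, and 0 of them called. Markers of other cells moved with the Mac1 arms. The B cell list summed to 6.59 and 9.78 CPM in controls and 28.4 and 39.5 CPM in knockdown libraries, mostly CD22, with MS4A1 and CD79B at 0. The stromal and endothelial list went from 18.1 and 22.1 to 53.2 and 53.6 CPM, mostly PECAM1, with DCN and VWF at 0 (2 of 5), and the monocyte list from 38 and 43.2 to 60.2 and 63.7 CPM, mostly CSF1R, with CD14 and LYZ at 0.037 and 0.0148 CPM. The T cell list went from 422 and 436 to 568 and 566 CPM. Their part in the changes of the members was not tested. Leaving out the first control left 1 of the 3 calls, CHAC1.

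MyLa had 1 member called, SLC7A5, higher (background 1.88%, 1.02% higher and 0.861% lower). It was at 154, 145 and 145 CPM in controls and 184, 174 and 187 CPM in knockdown libraries, with no overlap and a log2 fold change of 0.30 (SE 0.07, edgeR adjusted p = 0.0286). All MyLa knockdown libraries lay above all controls for 6 of the 33 members and 2457 of 21138 genes. Same-numbered MyLa libraries deviated together, and with the replicate number as a block SLC7A5 was not called (edgeR adjusted p = 0.137), nor was it when any 1 of the 6 libraries was left out. Pseudogene copies of SLC7A5 exist, and no source used here states how reads were split among them. ATF4 read 578, 546 and 571 against 607, 565 and 566 CPM (log2 fold change 0.04, edgeR adjusted p = 0.979).

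H9 had 0 members called (background 1.82%, 0.852% higher and 0.965% lower), with 3 of 33 at an unadjusted p under 0.05 (9.09%, beside 10.6% of all genes) and 0 by DESeq2 and by limma-voom. Those 3 were DDIT3 (46.3 to 36.1 CPM, log2 fold change -0.36), PYCR1 (203 to 252 CPM, 0.31) and PPP1R15A (78.6 to 51.8 CPM, -0.60), with edgeR adjusted p of 0.168, 0.184 and 0.293. ATF4 read 703 and 745 CPM in controls and 575, 726 and 634 CPM in knockdown libraries, overlapping (log2 fold change -0.17, edgeR adjusted p = 0.557).

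A test of whether the 7 responses differ called 19 of the 33 members (background 35.2% of 21138 genes), and 17 with SUP-T1 left out (background 25%). SLC1A5 had the lowest p (edgeR adjusted p = 4.66e-07 with SUP-T1 and 0.00118 without it). TRIB3 (edgeR adjusted p = 1.70e-06 and 0.000134), SLC7A5 (1.55e-05 and 0.000132) and SESN2 (0.000269 and 0.00459) came next. For SLC1A5 the log2 fold changes ran from -0.68 in CCRF-CEM to 0.57 in SUP-T1, and for TRIB3 from -0.95 to 0.31 in the same lines. Leaving out single libraries moved the count between 15 and 32, with 32 when THP6 knockdown 1 was out.

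With the line as the replicate, 0 of 32 members had a mean response over the 7 lines that passed edgeR's test (0% of 17382 genes did), while 10 had an unadjusted p under 0.05, all with negative mean (2.58% of all genes were under 0.05, 1.41% with a negative mean). SUP-T1 entered by its label. With that line left out, 12 of 33 members were under 0.05, all with negative mean (6.47% of all genes, 3.36% with a negative mean), and 0 were called. DESeq2 and limma-voom called 0 too. The median mean response of the 32 was -0.16 on the log2 scale, against -0.00062 for all genes. SLC6A9 (log2 fold change -0.51, SE 0.12), ATF3 (-0.40, SE 0.11), SLC1A4 (-0.27, SE 0.08) and ASNS (-0.42, SE 0.13) had the lowest p, all with an edgeR adjusted p of 1.00. Without SUP-T1 they were at -0.57, -0.41, -0.29 and -0.38. THP6 entered as the sum of 2 unlike knockdown libraries. In its knockdown 1 and 2 SLC6A9 stood at 0.869 and 0.242 times the control mean and ATF3 at 0.926 and 0.406 times. SLC1A4 stood there at 1.02 and 0.555 times and ASNS at 1.10 and 0.398 times. SLC6A9 was called in no line, and in MyLa and Mac1 it had at most 4 counts in any library, so its direction there cannot be read.

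A difference of the response between the classes passed that test for 0 of 32 members (0% of 17382 genes), with 3 members at an unadjusted p under 0.05 (2.76% of all genes). ASNS came closest, with a log2 response 0.66 higher in CTCL than in T-ALL lines (SE 0.16, edgeR adjusted p = 1), followed by PCK2 (0.49, SE 0.17), ATF3 (0.47, SE 0.17) and SESN2 (0.42, SE 0.21). THP6 entered these as the sum of 2 unlike knockdown libraries. In its knockdown 1 and 2 ASNS stood at 1.10 and 0.398 times the control mean and PCK2 at 1.06 and 0.436 times. ATF3 stood there at 0.926 and 0.406 times and SESN2 at 1.06 and 0.611 times. SUP-T1 entered these differences by its label. With it left out the differences were 0.67, 0.43, 0.54 and 0.30, and 5 of 33 members were at an unadjusted p under 0.05 (4.03% of all genes), 0 called. DESeq2 and limma-voom called 0. With 7 lines as replicates the p that misses the threshold does not show that the classes respond alike.

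Other genes of the pathway, 95 listed and 93 tested, give the surroundings. In CCRF-CEM 19 of the 93 fell and 1 rose, 21.5% called beside 8.44% of all genes (5.43% lower). The fallen genes held 7 of the 21 genes listed as cytosolic tRNA synthetases (33.3%), a list that also holds the tRNA exporter XPOT. The synthetases charge tRNAs with amino acids and include known ATF4 targets. FARSA went from 456 ± 33.2 to 339 ± 8.11 CPM and SARS1 from 293 ± 5.27 to 206 ± 7.02 CPM (n = 3 and 3, log2 fold changes -0.43 and -0.51, edgeR adjusted p 5.40e-06 and 4.63e-05). Of 17 other targets of ATF4 and CHOP 4 fell (23.5%), with the BH3-only gene BBC3 at 7.46 ± 0.241 and 2.03 ± 0.157 CPM (log2 fold change -1.87, edgeR adjusted p = 7.86e-09). Argininosuccinate synthase ASS1, which makes a precursor of arginine, went from 131 ± 6.12 to 43.8 ± 4.74 CPM (log2 fold change -1.58, edgeR adjusted p = 2.14e-05). Of the 18 kinases and factors of the eIF2 step 1 was called (5.56%, under the 8.44% of all genes), DELE1 (26.8 ± 0.645 to 21.2 ± 0.95 CPM).

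MOLT4 had 16 of the 93 lower and 4 higher, 21.5% called beside 19.2% of all genes. The neutral amino acid exchanger SLC7A8 went from 16.1 ± 0.79 to 0.362 ± 0.0202 CPM (n = 2 and 2, log2 fold change -5.46, edgeR adjusted p = 6.33e-12), and the proline degrading enzyme PRODH from 1.29 ± 0.419 to 10.4 ± 1.39 CPM (log2 fold change 3.02, edgeR adjusted p = 3.97e-07). In SUP-T1 16 rose and 10 fell with the label, 28% beside 16.7% of all genes, with FARSA at 119 ± 5.21 and 173 ± 2.21 CPM (n = 3 and 3). The interferon-inducible eIF2 kinase EIF2AK2 stood at 34.3 ± 1.13 and 50.9 ± 1.62 CPM there (log2 fold change 0.57, edgeR adjusted p = 7.29e-06). The counts were 8 higher and 4 lower in THP6 (12.9% beside 7.4% of all genes), 6 and 6 in Mac1 (12.9% beside 7.89%), 2 and 1 in H9 (3.23% beside 1.82%) and 1 and 1 in MyLa (2.15% beside 1.88%).

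Some of these counts can hold reads of neighbours, since no source used here states whether counting was by strand. DDIT4 shares 847 exon bases with DDIT4-AS1 on the opposite strand, VLDLR 738 with VLDLR-AS1, SLC7A11 865 with SLC7A11-AS1, and DDIT3 355 with MARS. MTHFD2 shares 1324 with SLC4A5 and SLC1A5 shares 780 with AC008622.2, also on the opposite strand. On the same strand ASNS shares 1985 of its 4455 exon bases with AC079781.5, and PYCR1 shares 408 with MYADML2. Counting by strand would not separate these same-strand overlaps. Further members share exon bases with neighbours too.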

How the data were processed

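Polyadenylated RNA of 36 libraries from 7 lines was measured. The deposited values are expected counts per gene, which the authors made with cutadapt 2.3, STAR 2.7.8a and RSEM 1.3.3 on GRCh38, per the submitters' processing notes. They were already whole numbers. Annotation release and strand setting: not given in the sources used here. Among 60628 identifiers 58516 (96.5%) are in GENCODE 29, which gave coordinates. The 5 rows that name reporters or vectors and no gene held 0 counts.

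The 35 genes, their roles, the lists of other pathway genes and the tests were chosen with earlier results of these data known. Groups came from the titles, since the cell line field of SUP-T1 carries running numbers.

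edgeR 4.0.16 (R 4.3.3; TMM, filterByExpr, quasi-likelihood F tests) fitted 14 group means to all 36 libraries. Each line was 1 contrast, and differences between lines were tested together. The common dispersion was 0.01178. Sums of each line's arms (17382 genes, line as covariate) or of its controls (18565 genes) gave the tests across lines. Benjamini-Hochberg adjustment ran over all tested genes (threshold 0.05). CPM used the TMM-scaled total, SE is that of the log2 fold change, and totals of 18.62 M to 50.63 M set the counting error. The tests by line, of the mean response and of the class difference at baseline were first tried on simulated counts. The tests of differences between lines and of the class difference of the response were not.

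Same-numbered residuals of the 2 arms correlated from -0.143 to 0.263 over 17 pairs. All 3 pairs exceeded 0.1 only in MyLa (0.213, 0.136 and 0.142), where the numbers were taken as a pairing.

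Values in every library are given for GATA3 as the check of the labels, for ATF4, for the 4 called members of lowest adjusted p in each line and for members called 1 way in 3 lines or more. Over lines the 4 of lowest p are named, and of each other list up to 2 called genes a line. CCRF-CEM ASNS and SUP-T1 ASNS, and the PHGDH and PSAT1 controls, were named after their values were seen. Alternatives were DESeq2 1.42.0, DESeq2 size factors in edgeR, limma-voom (limma 3.58.1), no filter, at least 10 counts in 2 libraries, separate fits by line, a replicate block and leaving out libraries or lines. Python 3.11.15 (pandas 2.3.3, numpy 2.4.6, matplotlib 3.10.9) searched promoters and drew figures.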

Additional observations from a re-analysis of the deposited data

Results flagged for a closer look

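The response to the hairpin differed between the 7 lines, by edgeR's quasi-likelihood F test adjusted over 21138 genes, for 19 of the 33 tested members. Adjusted p was 0.00363 for ATF4, 0.00175 for DDIT3 and 0.000309 for CEBPB among the transcription factors. Among effectors it was 1.70e-06 for TRIB3, 0.00128 for PPP1R15A, 0.000923 for DDIT4, 0.000269 for SESN2, 0.0112 for CHAC1 and 0.00273 for VLDLR. PHGDH, at 0.0201, was the only serine or one-carbon enzyme among the 19, and of the other enzymes ASNS had 0.0407, ALDH18A1 0.000281, PYCR1 0.00264 and PCK2 0.0251. Among transporters it was 1.55e-05 for SLC7A5, 0.00280 for SLC3A2, 0.00901 for SLC7A1, 0.0413 for SLC1A4 and 4.66e-07 for SLC1A5. A difference of this kind was also called for 35.2% of all genes tested. Groups held 2 or 3 libraries, too few to test 1 library against the others of its group.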

How the results depend on the processing

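Counts of members called in a line moved by more than 1.5 times in these cases. With no filter on low counts they were 1 in H9 (1.52% of all genes), 5 in Mac1 (5.22%), 15 in MOLT4 (10.7%) and 19 in THP6 (6.25%). The same setting gave 1 for the class difference of the response (ASNS), beside 0.243% of all genes. With each line fitted separately the counts were 1 in H9 (1.81% of all genes), 4 in MyLa (8.84%), 14 in Mac1 (18.1%), 20 in MOLT4 (41.2%) and 0 in THP6 (0%). With limma-voom they were 0 in MyLa (2.81% of all genes), 7 in SUP-T1 (17.9%) and 10 in THP6 (6.85%). With the replicate block they were 0 in MyLa (1.15% of all genes) and 2 in THP6 (2.23%), where the third control has no partner. DESeq2 called 2 members at baseline (8.3% of all genes). Leaving out 1 library gave 0 to 0 in H9, 0 to 0 in MyLa, 12 to 13 in CCRF-CEM, 1 to 2 in Mac1, 3 to 5 in MOLT4, 6 to 9 in SUP-T1, 0 to 29 in THP6 and 15 to 32 for differences between lines. Leaving out a line gave 0 to 0 in the mean response, 0 to 0 in the class response and 0 to 0 at baseline, also without THP6 knockdown 2, an alternative added after the data were seen. With 1 library left out, the share of all genes called was 0.929% to 1.18% in MyLa, 5.13% to 7.32% in CCRF-CEM and 12.2% to 14% in SUP-T1. The other left-out counts, here and above, are not read as a result about the members. The causes were not tested.

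Of 45 calls of a member in a line, 29 held under every alternative that left out no library and 19 under every alternative run. The direction held in 560 of 561 refits. The exception was PPP1R15A in THP6 without knockdown 2, at -0.016 on the log2 scale, against 1.93 without knockdown 1. Outside MyLa the rule for pairing by replicate number was not met, although both H9 pairs, too few for that rule, correlated at 0.102 and 0.263. In those lines the block gave 0 calls in H9 (1.04% of all genes), 14 in CCRF-CEM (6.79%), 3 in Mac1 (6.56%), 7 in MOLT4 (17.2%) and 11 in SUP-T1 (14.9%). In Mac1 same-numbered residuals correlated at -0.126, and the crossed pairing, added later, called 3 (6.9% of all genes). With 2 or 3 libraries an arm small changes could not be told from the spread.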

Other observations

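FARSA, a subunit of phenylalanyl-tRNA synthetase, was lower in MOLT4, at 389 ± 17.3 CPM in controls and 190 ± 3.67 CPM in knockdown libraries (SD, n = 2 and 2, log2 fold change -1.03, edgeR adjusted p = 5.13e-12). It was also lower in CCRF-CEM (log2 fold change -0.43) and was higher in the libraries labelled knockdown of SUP-T1 (0.54), where GATA3 RNA was higher too. The other 4 lines gave log2 fold changes of 0.12 in H9, -0.04 in MyLa, -0.18 in Mac1 and -0.10 in THP6, none called. The autophagy receptor SQSTM1 was higher in 2 CTCL lines, with 49.5 ± 2.9 and 63 ± 5.92 CPM in H9 (n = 2 and 3, edgeR adjusted p = 0.031) and 386 ± 7.68 and 502 ± 13.8 CPM in MyLa (n = 3 and 3, edgeR adjusted p = 0.00402). KLHL24 was lower in MOLT4 (32.6 ± 0.37 to 16.1 ± 2.87 CPM, edgeR adjusted p = 1.05e-05) and in the libraries labelled knockdown of SUP-T1 (39.2 ± 2.68 to 22.3 ± 0.637 CPM, edgeR adjusted p = 1.34e-05). Unlike FARSA it did not follow GATA3 RNA over these lines, which was lower in MOLT4 knockdown libraries and higher in those of SUP-T1. Glutamine synthetase GLUL was at 723 ± 17.6 CPM in THP6 controls and 1222 ± 583 CPM in its knockdown libraries (n = 3 and 2, edgeR adjusted p = 0.00367), with 810 CPM in knockdown 1 and 1635 CPM in knockdown 2, the library that stands apart. These genes were picked from the lists of other pathway genes after their values were seen.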
